A study of Mus musculus with 12 samples.

Results

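The genes described here carry a cell from the G1 phase of its cycle into S phase and copy its DNA. There were 46 of them, listed by gene symbol, and 43 had a probe set on the array that named that gene alone. Orc5, Mcm7 and Ccnd1 were named only by probe sets shared with another gene and have no value. E2f2 and Cdkn1c lay too low to enter the test, which leaves 41 genes tested among 24265 of the 30142 named genes. The 12 samples came from 6 cultures of megakaryocytes, the bone marrow cells that shed platelets, grown in thrombopoietin from hematopoietic stem cells of male C57BL/6 mice. The 6 vehicle arrays received the solvent for 6 h and the 6 dexamethasone arrays received the synthetic glucocorticoid at 100 nM for 6 h. All 12 samples shared the same culture: 3 days in thrombopoietin at 100 ng per ml, a night in 10% charcoal-stripped serum, and an albumin gradient on day 4. Each of the 6 cultures gave 1 array to either treatment, and cultures 1 to 6 are numbered as the labels' replicates. The labels' own culture numbers for these replicates are, in order, 1, 4, 5, 6, 7 and 8 under both treatments. Nothing in the sources used here says whether each culture came from its own mice. The p-values set a mean change against how much it varied over these cultures, with each gene's variance drawn towards that of all tested genes. They cover these cultures only.

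A cell commits to S phase when D-type cyclins with Cdk4 or Cdk6, followed by cyclin E with Cdk2, phosphorylate the retinoblastoma protein Rb1 and release E2F transcription factors. E2F drives the genes that load and fire replication origins: the origin recognition complex, Cdc6 and Cdt1 place the MCM helicase on DNA, Cdc45 and the GINS complex switch it on, and polymerases follow with the sliding clamp Pcna. Maturing megakaryocytes repeat S phase without dividing and become polyploid, a process in which D-type cyclins and cyclin E are known to take part.

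The RNA showed the labelled cell type. All 8 megakaryocyte markers with a value (Pf4, Itga2b, Gp9, Gp5, Gp6, Vwf, Ppbp and Gata1) lay above the negative control median on every array, and their summed level was 20.24 to 20.34 in vehicle and 20.23 to 20.37 in dexamethasone (log2). Levels throughout are the deposited values, taken as log2 from their range, so a difference of 1 is a 2-fold change, and the median of the array's negative control probe sets was 6.15 to 6.39 and their 95th percentile 9.98 to 10.39. In bulk RNA of this kind, fewer cells of a type and less RNA per cell cannot be told apart.

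After 6 h of dexamethasone, 9 of the 41 tested genes had fallen, 1 had risen and 31 did not pass the threshold, an adjusted p under 0.05. The 9 falls were those of Mcm6, Pola1, Ccnd2, E2f3, Mcm3, Mcm4, Orc2, Mcm2 and Pcna, and the rise was that of E2f8. Falls made up 22.0% of these genes against 4.56% of all tested genes, rises 2.44% against 7.39%, and both together 24.4% against 12.0%. The split of all called genes depends on scaling: higher ones made up 61.9% with the values left as they were, 44.9% once arrays were quantile normalized and 70.3% once each array's median was set equal, while these genes split 1 to 9, 1 to 11 and 1 to 6. The changes were small: the strongest fall was 0.48 on the log2 scale, and no gene moved 2-fold. The median change was -0.05, beside -0.01 over all tested genes. Among the called genes, Pola1, E2f3, Orc2, Mcm3 and Mcm2 stayed below 9.98, the lowest 95th percentile of the negative controls, on every array. Mcm4 had arrays on both sides of it, and Mcm6, Ccnd2, Pcna and E2f8 lay above the highest, 10.39, on every array. Of the 41 genes, 37 exceeded the negative controls' median on every array, while 2, Cdt1 and Cdkn2c, never did. Of all 24265 tested genes, 11926 did so on every array and 9840 never did, so the shares over all genes include many at low signal. With the filter set at that median, 11 of 38 genes passed against 3427 of 13050 of all genes, which are similar shares. Falls were then 10 against 1237 and rises 1 against 2190, so falls alone remained more frequent among these genes.

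**Figure D1:**
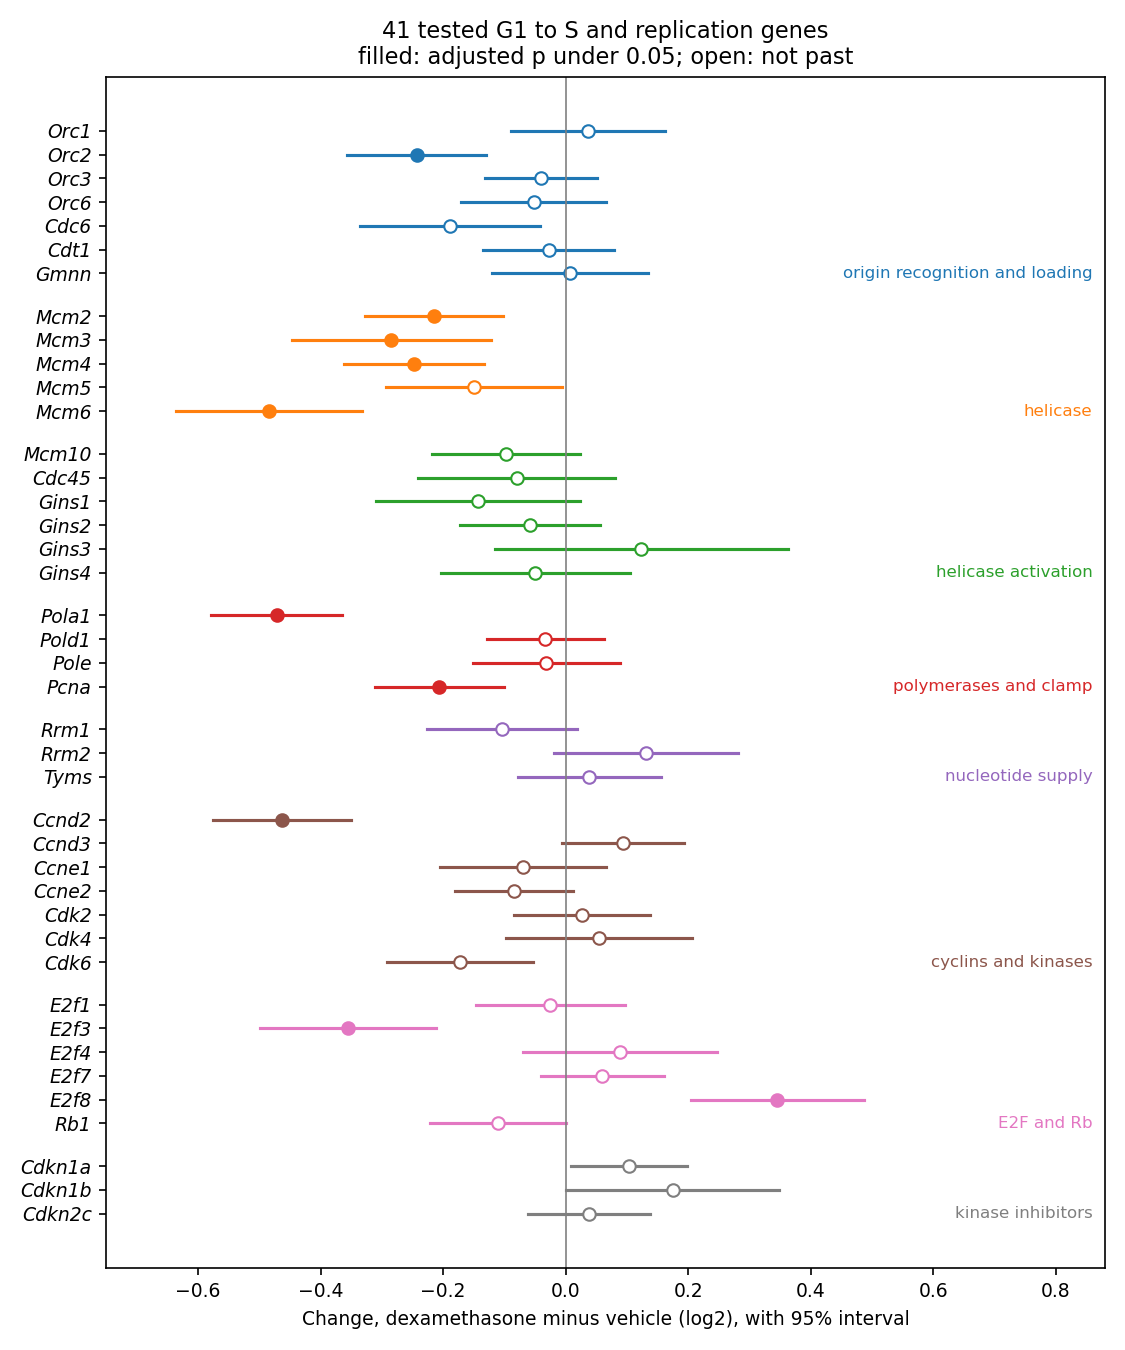
Change of the 41 tested genes, dexamethasone minus vehicle on the log2 scale, grouped by role; points are the mean of 6 cultures, bars the 95% interval of the limma fit, and filled points passed an adjusted p of 0.05. The filled points are 9 genes left of 0, 4 of them MCM helicase genes, and E2f8 right of 0.

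The plot of changes by role shows that the falls were spread over several steps of the pathway and left members of each step below the threshold. In 9 genes every culture moved down, which is 22.0% of the 41 against 8.32% of all tested genes. These were the same 9 genes that passed, and the calls use the same changes, so the match is not separate evidence. In 6 of these 9 genes (Mcm6, Pola1, Ccnd2, E2f3, Orc2 and Pcna) the dexamethasone arrays lay wholly below the vehicle arrays, 14.6% against 2.63% of all tested genes. Every culture moved up in 5 genes, E2f8, Ccnd3, E2f7, Cdkn1a and Cdkn1b, against 11.2% of all tested genes, and 19.5% of all tested genes moved one way in every culture. No gene of the 41 had dexamethasone arrays wholly above the vehicle arrays, against 4.10% of all tested genes.

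**Figure D2:**
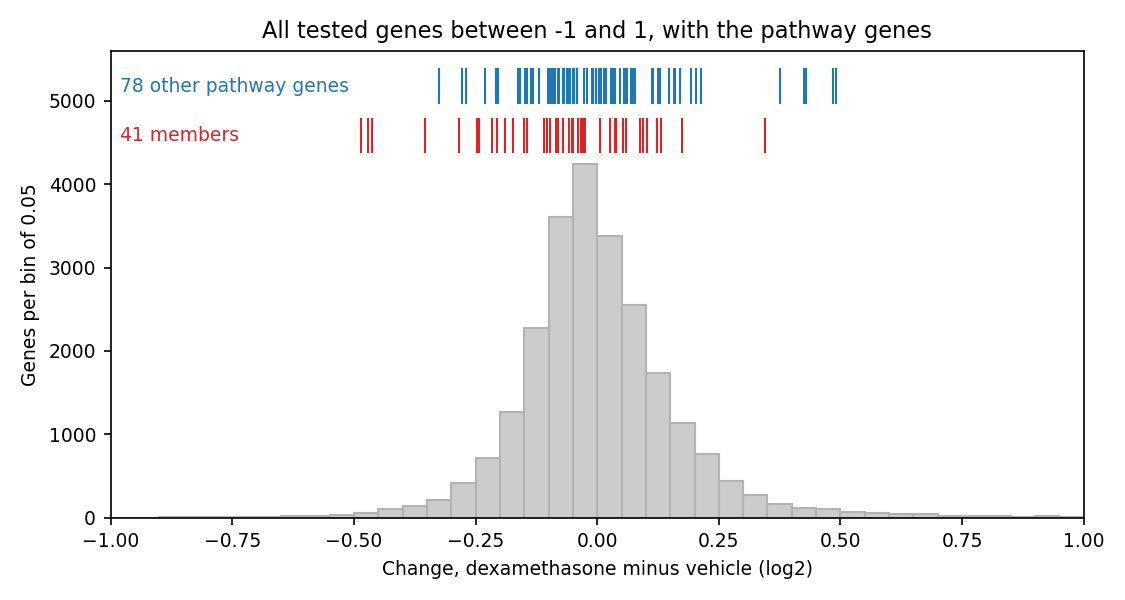
Number of tested genes per bin of 0.05 in the change, dexamethasone minus vehicle (log2, shown between -1 and 1), with a red tick for each of the 41 genes and a blue tick for each of 78 further replication and G1 to S genes. The red ticks reach from -0.48 (Mcm6) to 0.35 (E2f8), with 27 left of 0 and 14 right of it.

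The origin recognition complex marks the sites where replication can begin. Of its measured subunits only Orc2 passed the threshold. Orc2 was 9.13, 9.26 and 9.47 (lowest, median and highest array) in vehicle and 8.80, 9.08 and 9.13 in dexamethasone. The lowest vehicle array, culture 2, and the highest dexamethasone array, culture 1, were equal to 2 decimals, and the groups met without overlapping. The change was -0.24 (SE 0.05, n = 6 cultures, adjusted p = 0.0148), lower in 6 of 6 cultures by 0.13 to 0.38. Orc1, the large subunit that binds ATP, changed by 0.04 (95% interval -0.09 to 0.16), Orc3 by -0.04 (-0.13 to 0.05) and Orc6 by -0.05 (-0.17 to 0.07). All 3 intervals include 0.

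Cdc6 and Cdt1 load the helicase onto the marked origin, and geminin, Gmnn, blocks Cdt1 once S phase is under way. Cdc6 was 6.34, 6.45 and 6.57 in vehicle and 6.02, 6.31 and 6.38 in dexamethasone, a change of -0.19 (SE 0.06, adjusted p = 0.0979). It was lower in 5 of 6 cultures, and only 3 of the 6 dexamethasone arrays lay above the negative control median against all 6 vehicle arrays. Cdt1 was below that median on every array, at 5.44 ± 0.08 and 5.41 ± 0.04 (SD, n = 6). Geminin was 8.38 ± 0.15 and 8.39 ± 0.09, with 3 cultures higher and 3 lower.

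The MCM2 to MCM7 proteins form the ring that unwinds DNA at the fork. All 5 measured MCM genes were lower on average, and Mcm2, Mcm3, Mcm4 and Mcm6 passed. Mcm6 was 11.86, 11.95 and 12.26 in vehicle and 11.17, 11.55 and 11.69 in dexamethasone. Every dexamethasone array was below every vehicle array, with culture 6 the lowest. Mcm6 fell by 0.48 (SE 0.07, adjusted p = 0.0019), a 1.40-fold change, and by 0.30 to 0.76 in single cultures. In 6 of 6 cultures it fell further than the other measured MCM genes, a comparison that was not tested.

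Mcm4 was 10.11, 10.37 and 10.57 in vehicle and 9.75, 10.16 and 10.31 in dexamethasone, a change of -0.25 (SE 0.05, adjusted p = 0.0141). Mcm3 was 8.91, 9.05 and 9.59 in vehicle and 8.38, 8.91 and 9.17 in dexamethasone, a change of -0.28 (SE 0.07, adjusted p = 0.0353). Mcm2 was 7.54, 7.76 and 8.07 in vehicle and 7.33, 7.61 and 7.74 in dexamethasone, a change of -0.22 (SE 0.05, adjusted p = 0.0243). For these 3 genes the groups overlapped: cultures 1 and 5 had the highest vehicle arrays and culture 6 the lowest array under either treatment, while each culture's own pair of arrays moved down. Their calls therefore rest on the pairing and on how it enters the fit. Without culture as a block the adjusted p was 0.137 for Mcm4, 0.209 for Mcm3 and 0.16 for Mcm2. With culture as a random effect, which keeps the pairing, the adjusted p was 0.0706, 0.124 and 0.0871. The call of Mcm2 ended when culture 1, 2, 4, 5 or 6 was left out, at an adjusted p of 0.0509 to 0.0689, and that of Mcm3 without culture 1, 3, 5 or 6, at 0.0788 to 0.096. Centring on array medians also ended both calls, at 0.0746 and 0.069.

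Mcm5, whose product closes the ring beside Mcm2, did not pass. It was 7.23, 7.46 and 7.81 in vehicle and 7.08, 7.36 and 7.57 in dexamethasone, with a change of -0.15 (95% interval -0.29 to -0.01, adjusted p = 0.169). Cultures 1, 2, 5 and 6 were lower by 0.14 to 0.32, and cultures 3 and 4 were higher by 0.07 and 0.02.

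**Figure D3:**
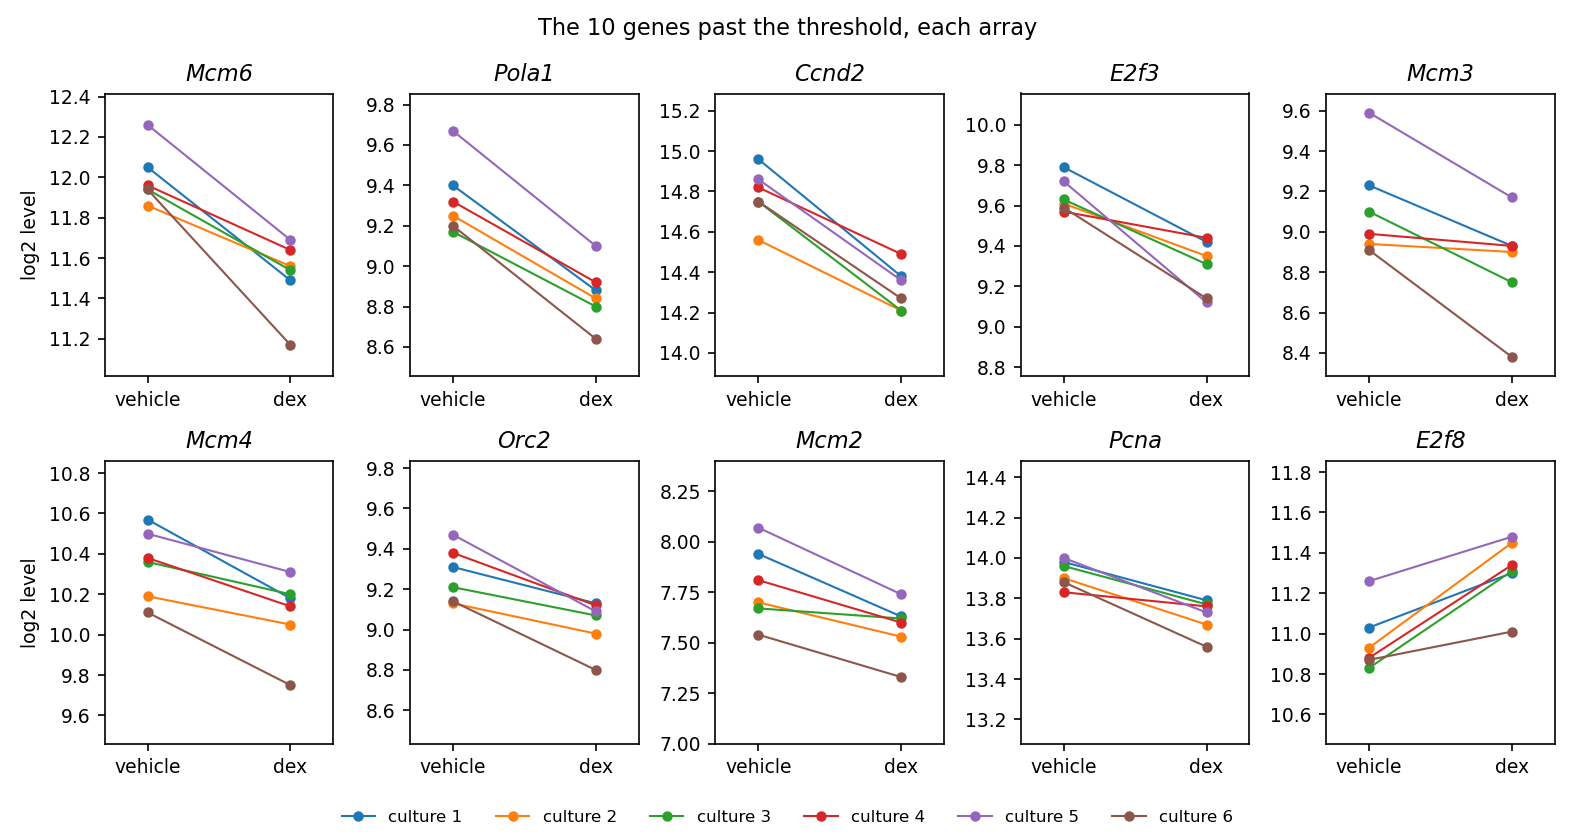
The log2 level on each array for the 10 genes past the threshold, vehicle on the left and dexamethasone (dex) on the right of each panel, with a line for each culture; every panel spans 1.4 log2 units, so slopes can be compared. All 6 lines go down in the 9 panels from Mcm6 to Pcna and up in that of E2f8, and culture 5 starts highest for Mcm6, Pola1, Mcm3, Orc2, Mcm2, Pcna and E2f8.

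MCM genes are textbook targets of E2F, so the bases before the start sites are shown for 2 genes that fell, Mcm6 and Pola1, for Mcm5, which did not pass, and for E2f8, which rose. They come from RefSeq on build GRCm38.p6, which is not stated to be the build of the array. Each stretch is the 160 bases before the start, 5′ to 3′ on the strand of the gene: Mcm6 at chr1:128359706-128359865 (minus strand), Pola1 at chrX:93632156-93632315 (minus), Mcm5 at chr8:75109349-75109508 (plus) and E2f8 at chr7:48881597-48881756 (minus). Capitals mark a match on either strand to any of 6 strings of the E2F type (TTTGGCGC, TTTCGCGC, TTTCCCGC, TTTGCCGC, TTCCCGCC and TTGGCGGG, some of which overlap each other).
Mcm6: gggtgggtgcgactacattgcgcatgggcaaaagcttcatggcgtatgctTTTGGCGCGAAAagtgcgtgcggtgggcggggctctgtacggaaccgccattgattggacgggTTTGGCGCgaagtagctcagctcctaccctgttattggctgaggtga
Pola1: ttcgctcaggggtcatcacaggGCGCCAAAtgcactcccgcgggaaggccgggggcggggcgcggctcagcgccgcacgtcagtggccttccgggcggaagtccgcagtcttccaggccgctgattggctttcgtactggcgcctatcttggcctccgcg
Mcm5: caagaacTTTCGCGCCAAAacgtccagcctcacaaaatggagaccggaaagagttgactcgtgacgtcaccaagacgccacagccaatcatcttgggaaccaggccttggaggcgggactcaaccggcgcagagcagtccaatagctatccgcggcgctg
E2f8: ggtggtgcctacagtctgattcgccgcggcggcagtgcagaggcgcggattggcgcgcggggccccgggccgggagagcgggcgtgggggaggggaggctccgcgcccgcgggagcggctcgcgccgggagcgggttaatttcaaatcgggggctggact

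The Mcm6 stretch holds TTTGGCGCGAAA, which joins 2 of the strings, and a further TTTGGCGC nearer the start. The Mcm5 stretch holds TTTCGCGCCAAA, which is the same 12 bases read on the opposite strand. This run occurs in 4 of 32851 RefSeq promoter windows, those of Mcm5, Mcm6, Msh3 and Mycn. So Mcm6, which fell in 6 of 6 cultures, and Mcm5, which was lower in 4 of 6, share it, and Mycn was 8.51 ± 0.21 and 8.44 ± 0.14 with a change of -0.08 (adjusted p = 0.371; Mycn is named because of this match). The E2f8 stretch holds none of the 6 strings, which says only that those letters are not in that window.

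Over windows of 250 bases before to 50 after the start, 34 of the 46 genes had an entry, and 16 of these 34 held at least 1 of the 6 strings, against 5.34% of the 27025 genes with an entry. Among the genes that fell, 7 had an entry and 4 of them (Mcm3, Mcm6, Pola1 and E2f3) held a string. Among those that did not pass, 23 had an entry and 10 held one. A CCAAT box was found in 23 of the 34, against 41.1% of all genes. AGAACA, one arm of the palindrome bound by the glucocorticoid receptor, was in 5 of the 34 (Ccne1, Cdk6, Cdkn2c, Orc5 and Rrm1), against 21.3% of all genes, and the full palindrome in none, against 0.0111% of all genes. A match is a string of letters and not a shown site of binding, and these windows are short.

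Cdc45 and the 4 GINS subunits join the MCM ring to make the working helicase, and Mcm10 helps to start it. None of these 6 genes passed. Cdc45 was 8.38, 8.47 and 8.95 in vehicle and 8.26, 8.51 and 8.69 in dexamethasone, a change of -0.08 (95% interval -0.24 to 0.08). Its cultures split: 1, 5 and 6 were lower by 0.27, 0.25 and 0.24, and 2, 3 and 4 were higher by 0.11, 0.10 and 0.08. Gins1 split in the same cultures, lower by 0.32, 0.40 and 0.25 and higher by 0.06, 0.03 and 0.02, with a mean change of -0.14 (-0.31 to 0.02). Mcm10 changed by -0.10, Gins2 by -0.06 and Gins4 by -0.05, with intervals that include 0. Gins3 changed by 0.12 with the widest interval of the 41 genes, -0.12 to 0.36; culture 3 was higher by 0.74 and the other cultures lay between -0.09 and 0.13.

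Of the polymerase genes, Pola1 encodes the catalytic subunit of polymerase alpha, which with primase lays down the first bases of each new strand. It was 9.17, 9.29 and 9.67 in vehicle and 8.64, 8.86 and 9.10 in dexamethasone. The groups did not overlap, and the 6 cultures fell by similar amounts, 0.36 to 0.57. Pola1 had the lowest adjusted p of the 41 genes, 0.000281, with a change of -0.47 (SE 0.05), a 1.39-fold fall. Pold1 and Pole, the catalytic subunits of the polymerases that extend the lagging and leading strands, changed by -0.03 each. Their 95% intervals were -0.13 to 0.06 and -0.15 to 0.09. Pold1 lay at 6.59 in vehicle and 6.56 in dexamethasone and Pole at 6.86 and 6.83, little above the negative control median. Both had a lower signal than Pola1, and the difference between the changes was not tested. Pola2, the partner subunit of Pola1, was higher in 6 of 6 cultures, at 7.34 ± 0.15 and 7.53 ± 0.12 with a change of 0.19 (SE 0.06, adjusted p = 0.0662). It is named here after its value was seen.

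Pcna, the ring that holds polymerases on DNA, was 13.83, 13.93 and 14.00 in vehicle and 13.56, 13.75 and 13.79 in dexamethasone. The groups did not overlap, with culture 6 the lowest under dexamethasone. The change was -0.21 (SE 0.05, adjusted p = 0.0224), down by 0.07 in culture 4 and by 0.18 to 0.31 in the others. The call of Pcna ended when culture 2, 3, 5 or 6 was left out, with an adjusted p of 0.0578 to 0.0666, while the change stayed between -0.211 and -0.185. It also ended after centring on array medians (0.0594).

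Ribonucleotide reductase, made of Rrm1 and Rrm2, and thymidylate synthase, Tyms, supply the building blocks of DNA. None of the 3 passed. Rrm1 was 10.57, 10.75 and 11.17 in vehicle and 10.37, 10.76 and 11.03 in dexamethasone, a change of -0.10 (95% interval -0.23 to 0.02), lower in 5 of 6 cultures. Rrm2 was 8.37, 8.62 and 9.03 in vehicle and 8.41, 8.90 and 8.94 in dexamethasone, a change of 0.13 (-0.02 to 0.28), higher in 5 of 6 cultures. The 2 subunits of the enzyme thus had means on opposite sides of 0, neither past the threshold. Tyms changed by 0.04 (-0.08 to 0.15).

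Cyclin D2, Ccnd2, which pairs with Cdk4 and Cdk6 in G1, was 14.56, 14.79 and 14.96 in vehicle and 14.21, 14.32 and 14.49 in dexamethasone. The highest dexamethasone array, that of culture 4, lay under the lowest vehicle array, that of culture 2. Ccnd2 fell by 0.46 (SE 0.05, adjusted p = 0.00042), a 1.38-fold change, and by 0.33 to 0.58 in single cultures. Cyclin D3, Ccnd3, was 8.94, 9.07 and 9.16 in vehicle and 9.08, 9.16 and 9.22 in dexamethasone. It was higher in 6 of 6 cultures, by 0.03 to 0.20, and its change of 0.09 did not pass (95% interval -0.01 to 0.19, adjusted p = 0.216). The difference between the changes of the 2 cyclins was not tested.

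Cdk6, a kinase partner of the D cyclins, was 12.83, 13.03 and 13.24 in vehicle and 12.69, 12.86 and 13.02 in dexamethasone. It was lower in 5 of 6 cultures with a change of -0.17 (SE 0.05, adjusted p = 0.0687), and culture 2 was the exception at 0.03 higher. It passed in 5 of 16 other settings: without culture 2 (change -0.21, adjusted p = 0.0355), and with all 6 cultures after quantile normalization (0.0138), with the filter at the 50th percentile (0.0459) or at the negative control median (0.0355), and with a variance trend and robust fit (0.0434). Over all 16 the adjusted p ran from 0.0138 to 0.216. Cdk4 changed by 0.05 (95% interval -0.10 to 0.21) and Cdk2 by 0.03 (-0.08 to 0.14), and for both changes the sign turned after quantile normalization. Ccne1, the first E-type cyclin gene, changed by -0.07 (-0.21 to 0.07) and lay above the negative control median on 1 of 12 arrays. Ccne2 was 8.61 ± 0.11 and 8.52 ± 0.09, lower in 5 of 6 cultures (adjusted p = 0.248).

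**Figure D4:**
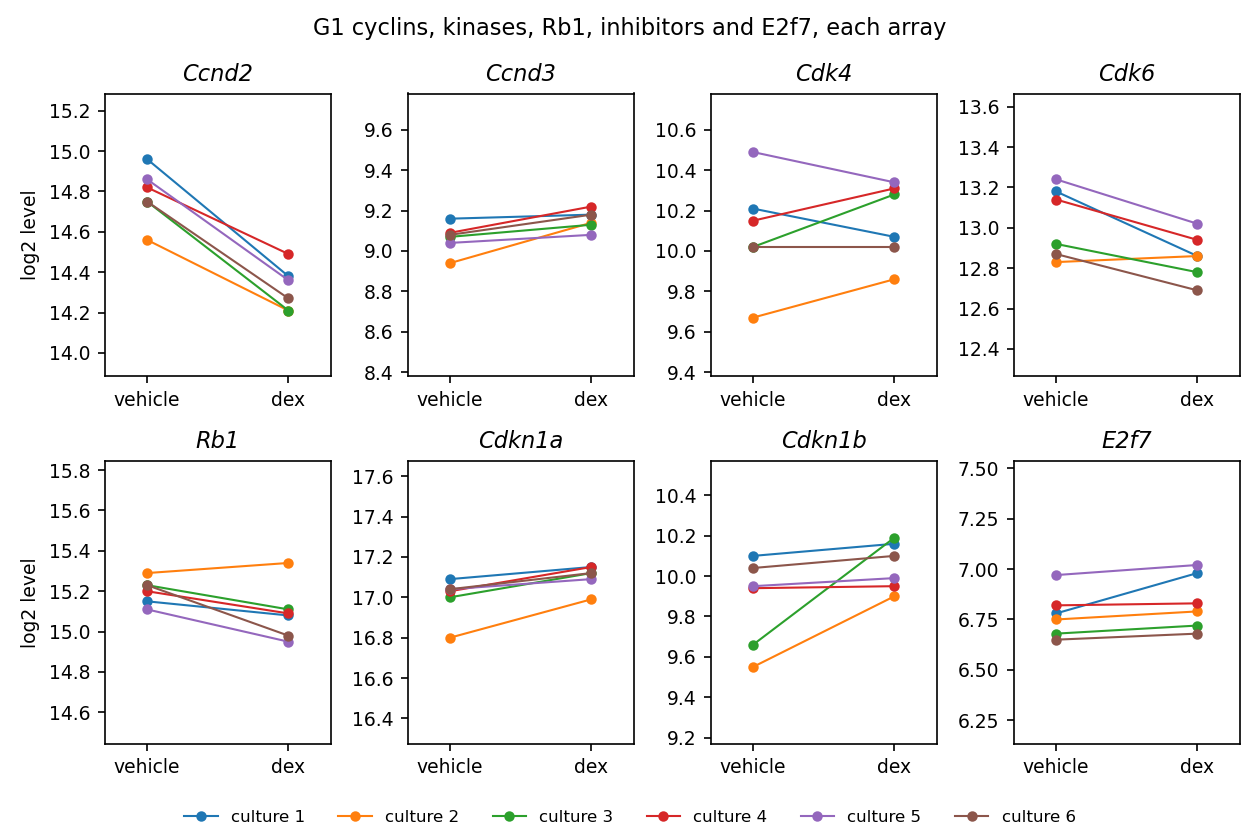
The log2 level on each array for Ccnd2, Ccnd3, Cdk4, Cdk6, Rb1, Cdkn1a, Cdkn1b and E2f7, vehicle on the left and dexamethasone (dex) on the right, with a line for each culture and 1.4 log2 units per panel. Ccnd2 goes down in all 6 cultures, Ccnd3, Cdkn1a, Cdkn1b and E2f7 go up in all 6, and the 6 lines of Cdk4 cross.

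The E2F factors went in different directions. E2f3, an activator of S phase genes, was 9.57, 9.62 and 9.79 in vehicle and 9.12, 9.33 and 9.44 in dexamethasone. The groups did not overlap, and cultures 5 and 6 were the lowest under dexamethasone. E2f3 fell by 0.35 (SE 0.06, adjusted p = 0.00774), by 0.13 to 0.60 in single cultures. This value is from a probe set whose identifier calls it unmapped. A second probe set of E2f3, assigned to a chromosome, was 8.36 ± 0.08 in vehicle and 8.15 ± 0.05 in dexamethasone. It changed by -0.22 and was also lower in 6 of 6 cultures (adjusted p = 0.0231 over all named probe sets).

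E2f8, an atypical E2F that represses E2F target genes, was 10.83, 10.91 and 11.26 in vehicle and 11.01, 11.33 and 11.48 in dexamethasone. The groups overlapped, since the dexamethasone array of culture 6 lay below the vehicle arrays of cultures 1 and 5. E2f8 rose by 0.35 (SE 0.06, adjusted p = 0.00802), in 6 of 6 cultures by 0.13 to 0.51. Cultures 2, 3 and 4 had rises of 0.46 to 0.51 and cultures 1, 5 and 6 of 0.13 to 0.27. Its relative E2f7 was higher in 6 of 6 cultures, but only by 0.06 on average (95% interval -0.04 to 0.16, adjusted p = 0.424).

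E2f1, the activator best known for S phase entry, was 6.68 ± 0.05 and 6.65 ± 0.08, a change of -0.03 (95% interval -0.15 to 0.10). E2f4, which acts mainly as a repressor in resting cells, changed by 0.09 (-0.07 to 0.25). E2f2 lay at 4.24 ± 0.07 and 4.35 ± 0.08, under the negative controls' median on 12 of 12 arrays, and was not tested. Rb1, which holds E2F in check, was 15.11, 15.21 and 15.29 in vehicle and 14.95, 15.09 and 15.34 in dexamethasone. Its change of -0.11 (SE 0.05, adjusted p = 0.19) passed only after quantile normalization, at -0.17 (adjusted p = 0.0283), and the adjusted p ran up to 0.613 across the other settings. The 2 further probe sets of Rb1 changed by 0.01 and -0.07.

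Of the listed inhibitors of G1 kinases, the 3 tested, Cdkn1a, Cdkn1b and Cdkn2c, did not pass. Cdkn1a, which encodes p21, was 16.80, 17.04 and 17.09 in vehicle and 16.99, 17.12 and 17.15 in dexamethasone. It was higher in 6 of 6 cultures by 0.05 to 0.19, a mean of 0.10 (95% interval 0.01 to 0.20, adjusted p = 0.155). Cdkn1b, which encodes p27, was 9.55, 9.95 and 10.10 in vehicle and 9.90, 10.04 and 10.19 in dexamethasone. It was also higher in 6 of 6 cultures, by 0.36 and 0.53 in cultures 2 and 3 and by 0.01 to 0.06 in the rest, with an adjusted p of 0.187. Cultures 2 and 3 had the 2 lowest vehicle levels of Cdkn1b.

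Cdkn1c, the gene of p57 and a known glucocorticoid target in other cells, was 4.79 ± 0.05 in vehicle and 4.74 ± 0.09 in dexamethasone. No array had it above the negative control median, it was not tested, and was higher in 2 cultures and lower in 4. Cdkn2c, the gene of p18, lay at 5.08 ± 0.06 and 5.12 ± 0.03, likewise below that median on all arrays (change 0.04, 95% interval -0.06 to 0.14).

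The cultures differed among themselves in these genes whatever the treatment. Of the 41 genes, 28 had their highest vehicle level in culture 5 and 10 in culture 1, whereas 19.7% and 19.6% of all tested genes did. Under dexamethasone, 23 of the 41 were lowest in culture 6, against 22.6% of all tested genes. The changes differed as well, but each culture had 1 array per treatment, so a different response cannot be told from the spread of single arrays. These changes also use the same arrays: a high vehicle array or a low dexamethasone array by itself makes a fall larger. The median change of the 41 genes was -0.16 in culture 5, -0.09 in culture 1 and -0.09 in culture 6, and -0.01, 0.01 and 0.02 in cultures 2, 3 and 4, while the median of all tested genes stayed between -0.02 and 0.01 in every culture. In culture 5, 31 of 41 genes were lower, and in culture 4, 18 of 41. The 10 genes that passed moved the same way in all 6 cultures, by the same changes that gave the calls. No label gives a batch for the cultures.

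**Figure D5:**
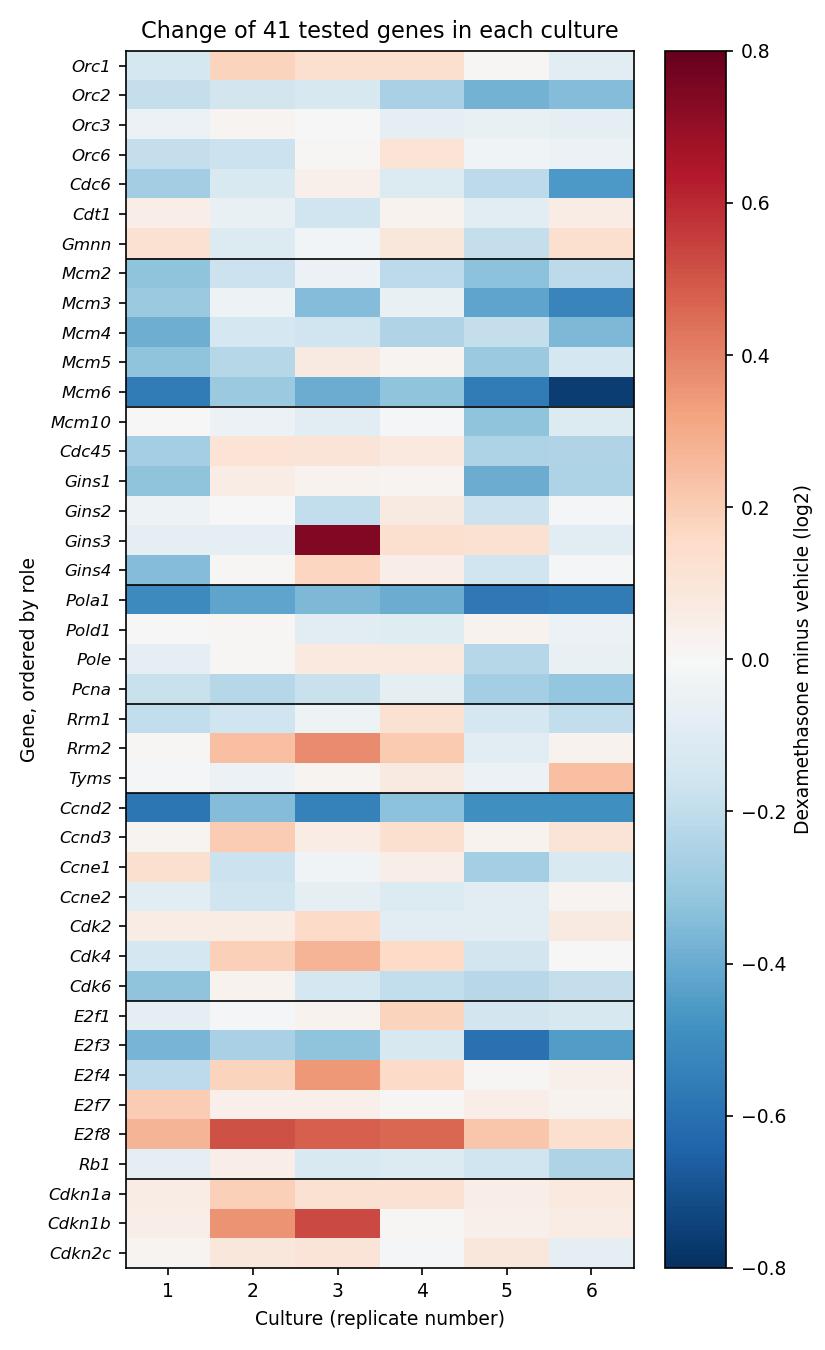
Change of the 41 tested genes (rows, ordered by role, black lines between roles) in each of the 6 cultures (columns), dexamethasone minus vehicle on the log2 scale, blue for lower and red for higher. The rows of Mcm6, Pola1, Ccnd2 and E2f3 are blue in every column and that of E2f8 is red in every column, while the columns of cultures 1, 5 and 6 hold more blue than those of cultures 2, 3 and 4.

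A wider list held 82 further replication and G1 to S genes, and its difference from the 41 was not tested. Of these, 79 had a value and 78 were tested: 6 fell, 6 rose and 66 did not pass, a called share of 15.4% against 12.0% of all tested genes, with a median change of -0.005. After quantile normalization 11 fell and 5 rose, and after centring 3 fell and 5 rose. With the filter at the negative control median 10 fell and 10 rose, 20 of 70 genes against 3427 of 13050 of all genes. The largest falls were those of Tipin, which protects stalled forks (-0.32, SE 0.08, adjusted p = 0.0263), the maintenance DNA methyltransferase Dnmt1 (-0.28, SE 0.05, adjusted p = 0.00888) and the dUTPase Dut (-0.27, SE 0.05, adjusted p = 0.007). Uhrf1, which brings Dnmt1 to new DNA, fell by 0.23, and Wdhd1, which ties polymerase alpha to the helicase, fell by 0.21. Each was lower in 6 of 6 cultures. The calls of Tipin, Dnmt1, Uhrf1 and Wdhd1 ended without the replicate block, at an adjusted p of 0.121, 0.0575, 0.0513 and 0.241, and that of Dut did not. The call of Tipin also ended without culture 1, 5 or 6 (0.0605 to 0.0702), that of Wdhd1 without culture 1, 3, 4, 5 or 6 (0.0519 to 0.0697) and that of Uhrf1 without culture 3 (0.0524). Tipin and Wdhd1 also lost the call with culture as a random effect (0.0651 and 0.146), after centring (0.0571 and 0.0785) and with all probe sets fitted (0.0821 and 0.0801), the last of which ended that of Uhrf1 too (0.0569).

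The largest rises were those of deoxycytidine kinase, Dck, a salvage enzyme (0.49, SE 0.07, adjusted p = 0.00225), and Tfdp2, a dimer partner of E2F (0.48, SE 0.05, adjusted p = 0.000285). Dck was 8.80, 8.98 and 9.04 in vehicle and 9.18, 9.50 and 9.62 in dexamethasone, so that the groups did not overlap. Tfdp2 was 9.85, 10.11 and 10.20 in vehicle and 10.38, 10.55 and 10.80 in dexamethasone, again without overlap. Pold4, the small subunit of polymerase delta, rose by 0.43 and the p19 inhibitor gene Cdkn2d by 0.42. The other tested INK4 genes Cdkn2a, Cdkn2b and Cdkn2c did not pass, but all had much lower signals than Cdkn2d. Cdkn2b and Cdkn2c were below the negative control median on every array. Cdkn2a lay at 6.57 in vehicle and 6.77 in dexamethasone, higher in 5 of 6 cultures with a change of 0.20 (adjusted p = 0.091). Myc, a driver of growth and G1 progress, rose by 0.38. Dck, Tfdp2, Pold4, Cdkn2d and Myc were higher in 6 of 6 cultures and passed under all 16 other settings tried.

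Markers of other blood cells moved in part alongside these changes. Of 8 neutrophil markers 4 fell (S100a8, S100a9, Ltf and Camp) and 4 did not pass, and their summed level was 11.73 to 14.53 in vehicle and 10.35 to 13.85 in dexamethasone. Elane and Retnlg, also on that list, were under the median of the negative controls throughout. Ltf was above that median on only 2 of 6 vehicle and 0 of 6 dexamethasone arrays. S100a8 and S100a9 fell most in culture 2, with changes of -1.33 and -1.86, where the median change of the 41 genes was -0.01, Ltf fell most in culture 4 and Camp in culture 1. These 4 markers were lower in 6 of 6 cultures, so values without culture 2 cannot show what part neutrophils had. Without culture 2 the change was -0.52 for Mcm6, -0.48 for Pola1, -0.49 for Ccnd2, -0.37 for E2f3 and 0.31 for E2f8, all 5 still past the threshold, as were Mcm3, Mcm4 and Orc2, while Mcm2 (adjusted p = 0.0509) and Pcna (0.0588) were not. Among stem and progenitor markers, Kit and Flt3 rose and Cd34 did not pass; Flt3 was under the median of the negative controls throughout, and the summed level was 13.20 to 13.59 and 13.28 to 13.64. Of 5 monocyte markers Ccr2 fell, of 4 tested mast cell and basophil markers Cpa3 rose and Mcpt8 fell, and of 3 lymphocyte markers and the 1 tested erythroid marker, Epor, none passed. The megakaryocyte markers Gp9 and Gata1 rose. The lymphocyte markers Cd3e and Cd79a, the erythroid marker Klf1, the mast cell markers Ms4a2 and Fcer1a and the macrophage marker Csf1r were under it throughout. What part these cells had in the results was not tested.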

How the data were processed

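RNA from 12 samples, 6 per treatment, was amplified from 50 ng, labelled with biotin and hybridised in 1 colour, per the labels' protocols. The values are the authors' deposited log2 values, 1 per probe set; how they were background corrected and normalized, and their log base, was not stated in the sources at hand, and log2 was taken from the range of the values. Of 65956 transcript clusters 30604 had 1 gene symbol in the platform annotation, 2146 several and 33206 none, and 827 symbols were updated through the RefSeq table. Each gene was represented by the probe set with the highest mean over 12 arrays, and genes above the array's 25th percentile on at least 6 arrays were tested (24265). Changes were fitted with lmFit and eBayes of limma 3.58.1 (R 4.3.3), 2-sided, with culture as a block, and p-values were adjusted by Benjamini-Hochberg over all tested genes. The treatment protocol in the labels says that each culture was split between the treatments, which is the source of the pairing. The labels' culture numbers pair the arrays in the same way. The deviations of same-numbered arrays correlated weakly, with r of 0.049 to 0.247, a mean of 0.157 and 4 pairs over 0.1. For different numbers the mean was -0.032. The fit was tested on simulated data whose planted changes were larger than any mean change of these members. That test therefore does not cover changes of their size. Intervals are 95% intervals of the limma fit, and the number of arrays limits their precision. The members and lists were chosen with earlier results of these data known. All members could be named; of the wider list, up to 5 genes per direction with the largest change past the threshold and in the same direction in all 6 cultures, and Pola2, Mycn and the other INK4 genes after their values were seen. Promoters are RefSeq windows on GRCm38.p6. Alternatives were the block, scaling, filter, variance trend, probe set rule and leaving out each culture; fitting all probe sets was added after seeing the data.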

Additional observations from a re-analysis of the deposited data

Results flagged for a closer look

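In 8 of 102 groups of 6 arrays examined, 1 array stood apart from the other 5 by more than 0.625 of the group's range, the 95% critical value of Dixon's test, and chance alone marks about 1 in 20 groups. Of these arrays 5 were the dexamethasone array of culture 6: Cdc6 was 6.02 there against 6.29 to 6.38 in the others, Gins1 6.63 against 6.78 to 6.87, and Rrm2 8.41 against 8.79 to 8.94. On the same array E2f8 was 11.01 against 11.30 to 11.48, and Tipin 10.12 against 10.63 to 10.78. In culture 5, Mcm10 was 6.87 in vehicle against 6.48 to 6.57, and Ccne2 was 8.69 in dexamethasone against 8.44 to 8.53. Cdkn1a in the vehicle array of culture 2 was 16.80 against 17.00 to 17.09.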

How the results depend on the processing

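Mcm6, Pola1, Ccnd2, E2f3 and E2f8 passed under all 16 other settings. Of 811 values of single genes under another setting, 747 kept their direction and side of the threshold, 47 lost a call, 6 gained one and 11, none of a called gene, turned sign. With no replicate block 7 of the 41 genes passed in place of 10, and 7 of the wider list in place of 12 (6 rises and 1 fall). The wider list gave 20 calls among 70 genes with the filter at the negative control median, where all genes gave 3427 among 13050. With all probe sets fitted, chosen after seeing the data, calls were 1482 over all genes, 5 among the 41 (those of Orc2, Mcm2, Mcm3, Mcm4 and Pcna ended) and 7 in the wider list. Leaving out 1 culture gave 1878 to 2331 calls over all genes against 2900, with the fewest without culture 3, 7 to 9 among the 41 and 8 to 10 in the wider list. After quantile normalization the sign turned for Cdt1 (0.002), Gmnn (-0.050), Tyms (-0.017), Cdk2 (-0.005) and Cdk4 (-0.018). Leaving out 1 culture turned Gmnn (range -0.018 to 0.045), Gins4 (-0.093 to 0.010), Pole (-0.055 to 0.007) and Tyms (-0.003 to 0.056). The cause was not tested. Genes below the negative control median, Cdt1 and Cdkn2c on all arrays, limit what could be seen.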
